A study of Mus musculus with 22 samples.

Results

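Complement components and regulators were followed across the 4 groups of the series in MEFs (mouse embryonic fibroblasts, cells taken into culture from embryos). The set lists 8 genes, of which Serping1 was picked for its rise with the mutant oncogene, on the oncogene and control arrays of these data. The other genes were chosen by their roles in complement, with earlier results of these data known. All probe sets that the platform annotation assigns to exactly 1 gene were taken. That gave 12 probe sets for 5 genes, out of 45037 probe sets and 18193 genes: 1 for Serping1, 3 for Cd55, 2 for Cd59a, 5 for Masp1 and 1 for Cfb. C4b had only a probe set shared with C4a, and Cd55 had 1 more that it shares with Cd55b. These shared probe sets are not analysed here. The 2 further listed genes, C3 and Cfd, had no probe set in the annotation used and were not measured here.

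RNA was measured on 22 Affymetrix whole-genome mouse arrays, 7 days after the cells were infected with adenovirus. The 7 double arrays came from MEFs with floxed Wt1 (Wt1f/f) and a mutant oncogene allele that Cre switches on by removing a lox-stop-lox cassette. The 5 oncogene arrays came from MEFs with the oncogene allele alone, and the 5 Wt1-null arrays from MEFs with floxed Wt1 alone. These 3 groups received an adenovirus with Cre, and the 5 control arrays came from wild type MEFs given a nonspecific GFP adenovirus, so that every comparison with the control also compares viruses and genotypes. Double against Wt1-null and double against oncogene compare cells that all received Cre. The Cre is delivered by the virus and not restricted to a cell type. All values are log2 RMA values, on which a difference of 1 is a doubling of signal, and an adjusted p below 0.05 is called.

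Complement is a cascade of blood and tissue proteases that marks surfaces for clearance and can end in a pore, the membrane attack complex. Its classical and lectin branches start with proteases bound to recognition proteins, and its alternative branch amplifies the response through a convertase that holds factor B. Host cells limit it with secreted inhibitors and with proteins anchored in their own membrane. Liver makes most of the circulating components, and fibroblasts are among the other cells that make several of them.

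In these fibroblasts the 5 measured genes differed from control by unlike amounts. Serping1 and Cd55, a secreted and a membrane-bound inhibitor, had means 2.14 to 3.35 higher in double and oncogene MEFs than in control MEFs. Of these, Serping1 was picked for its oncogene difference and Cd55 was called in double against control but not in oncogene against control with all arrays. Cd59a, Masp1 and Cfb, a membrane-bound inhibitor and 2 proteases, differed from control by -0.42 to 0.52 in double and oncogene MEFs. They were not called in any comparison with all arrays weighted alike, which does not show that they were unchanged. The bulk arrays cannot tell fewer cells of a type from less RNA per cell.

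The arrays were first checked as a whole. The probe set of Wt1 read 4.45 ± 0.19 in double, 4.59 ± 0.07 in oncogene, 4.47 ± 0.16 in Wt1-null and 4.37 ± 0.10 in control arrays (SD, n = 7, 5, 5 and 5), all within the background range of 3.65 to 5.06, which is what 3 Y-linked genes read in 9 arrays whose high Xist marks female cells. At such a level the arrays cannot check the deletion. Wt1-null replicate 2 was nearly the same as double replicate 2, with an SD of their difference over all probe sets of 0.152. The next closest pair across groups was oncogene and double replicates 6, at 0.285. For Wt1-null replicates 3 and 4 that SD was 0.161, and other pairs of the same group started at 0.243. The arrays least like the rest were replicates 4 of the double and oncogene groups, with mean correlations of 0.940 and 0.963. The 10 fibroblast markers averaged 12.35 to 13.72 per array. Means per array were 5.93 to 6.52 for 10 macrophage, 5.93 to 6.39 for 7 hepatocyte, 6.10 to 7.83 for 7 adipocyte, 5.46 to 5.90 for 8 endothelial and 5.80 to 6.88 for 8 epithelial markers. These means hide single markers with high arrays. The adipocyte marker Fabp4 ran from 6.48 to 12.52, and the macrophage marker Cd53 from 5.03 to 8.79. The epithelial markers Krt18 and Krt19 ran from 5.25 to 11.08 and 7.08 to 10.22. Others of the same lists stayed low, such as Cidec at 4.33 to 4.81 and Cdh1 at 3.73 to 4.32. Whether Wt1-null replicate 2 and double replicate 2 share a sample, or whether 1 of them is mislabelled, was not tested. Every Wt1-null mean over 5 arrays and every difference of double and Wt1-null depends on it, and results on Serping1 and Cd55 are given with and without Wt1-null replicate 2. Runs without that array still count Wt1-null replicates 3 and 4 as separate arrays, although they are nearly alike. The p-values of such runs may therefore be too small, and no run both left out replicate 2 and averaged replicates 3 and 4.

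Serping1 encodes the C1 esterase inhibitor, a secreted serpin that inactivates C1r, C1s and the MASP proteases. Its probe set 1416625_at read 10.58, 11.20, 10.15, 11.36, 10.35, 11.30 and 10.98 in double replicates 1 to 7. In oncogene replicates 1, 3, 4, 5 and 6 it read 11.75, 10.12, 10.32, 11.95 and 11.41. In Wt1-null replicates 1 to 5 it read 8.33, 11.52, 8.88, 9.04 and 9.21, and in control replicates 1 to 5 it read 7.83, 7.32, 7.29, 8.18 and 8.19. Every double, oncogene and Wt1-null array was above the highest control array, a description only, since the share of all probe sets so separated was not counted. The double and oncogene arrays overlapped each other, and all of them lay above 4 of the 5 Wt1-null arrays, while Wt1-null replicate 2 lay among them.

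As group means, Serping1 stood at 10.84 ± 0.49 in double, 11.11 ± 0.84 in oncogene, 9.40 ± 1.23 in Wt1-null and 7.76 ± 0.44 in control MEFs (SD, n = 7, 5, 5 and 5). The oncogene mean was higher than the control mean by 3.35 ± 0.47 (SE), a 10.18-fold difference. The double mean was higher than control by 3.08 ± 0.43 (8.47-fold) and the Wt1-null mean by 1.63 ± 0.47 (3.1-fold). Without Wt1-null replicate 2 the last difference was 1.10 ± 0.36. Double and oncogene MEFs differed by -0.27 ± 0.43, less than the spread between arrays, with an interval of -1.17 to 0.64. These 4 differences include the arrays on which Serping1 was picked, or share arrays with them, and are descriptions with no test. Their SE, and the intervals given or drawn for them, take no account of that picking.

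Double against Wt1-null is the 1 comparison of Serping1 whose 2 means hold no oncogene or control array, although its SE and p draw on the spread of all 22 arrays. All cells in it had floxed Wt1 and received Cre. The 7 double arrays lie in 1 set of neighbouring accession numbers and the Wt1-null arrays in 2 others, so that accession set and group cannot be told apart here. Serping1 was higher in double MEFs by 1.45 ± 0.43 (2.73-fold, 95% interval 1.46 to 5.11), which was not called (limma, adjusted p = 0.170, and 0.347 with only these 2 groups fitted). Without Wt1-null replicate 2 the difference was 1.98 ± 0.33 and was called (limma, adjusted p = 0.00281). With only these 2 groups fitted and that array left out it was 1.98 ± 0.26 (limma, adjusted p = 0.00668), where 1.6% of all probe sets were called. The share of all probe sets called in this comparison also moved with that array, with 3 called of 45037 (0.00666%, 5840 at an unadjusted p below 0.05) with it and 1697 (3.77%) without it. No other array changed this call when it was left out, and over all such runs the difference lay between 1.18 and 1.98.

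**Figure D1:**
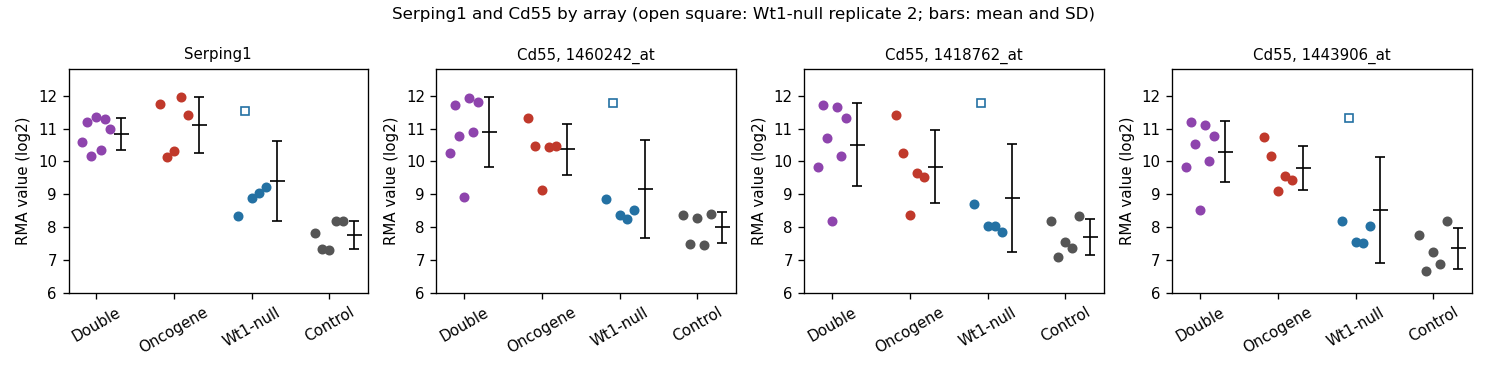
RMA values (log2, vertical axes) of the Serping1 probe set and the 3 Cd55 probe sets in each array of the double, oncogene, Wt1-null and control groups (7, 5, 5 and 5 arrays). Points are arrays, bars are group means with SD, and the open square is Wt1-null replicate 2, which reads 11.52 for Serping1 while the other Wt1-null arrays read 8.33 to 9.21.

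Cd55 encodes decay-accelerating factor, a membrane-anchored regulator that speeds the decay of the convertases on the cell's own surface. Its 3 probe sets followed each other closely, with Pearson r of 0.976 to 0.982 over the 22 arrays. Probe set 1460242_at read 10.26, 11.71, 10.77, 8.91, 11.93, 10.88 and 11.80 in the double arrays. It read 11.32, 10.46, 9.14, 10.43 and 10.48 in the oncogene arrays. The Wt1-null arrays read 8.84, 11.79, 8.36, 8.25 and 8.53, and the control arrays 8.37, 7.49, 8.27, 7.45 and 8.39. All double and oncogene arrays were above all control arrays, which is a description only. The lowest in each of those groups was replicate 4, and the 1 high Wt1-null array was again replicate 2. The other 2 probe sets had the same order of means, with 1418762_at at 10.51 ± 1.26 in double, 9.84 ± 1.11 in oncogene, 8.88 ± 1.65 in Wt1-null and 7.70 ± 0.54 in control MEFs (SD). Probe set 1443906_at stood at 10.29 ± 0.93, 9.80 ± 0.66, 8.52 ± 1.60 and 7.35 ± 0.63 in the same order of groups. For 1418762_at double replicate 4, at 8.17, lay below the highest control array, at 8.33, and the groups overlapped there.

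Cd55 rose in double against control MEFs. The differences were 2.90 ± 0.57 for 1460242_at (7.46-fold, 95% interval 3.28 to 16.98), 2.94 ± 0.56 for 1443906_at and 2.81 ± 0.67 for 1418762_at (SE). All 3 probe sets were called (limma, adjusted p = 0.00672, 0.00577 and 0.0210). Cd55 was the 1 gene called of the 4 members other than Serping1, and 3 of their 11 probe sets were called, all higher, where 4.01% of all probe sets were called. The call of 1418762_at was lost without control replicate 2, 3 or 4 (adjusted p = 0.0634, 0.0577 and 0.0609), and the calls of the other 2 probe sets held in every alternative run.

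In oncogene against control MEFs the differences of Cd55 were 2.37 ± 0.61 for 1460242_at (5.18-fold, 95% interval 2.13 to 12.58), 2.45 ± 0.61 for 1443906_at and 2.14 ± 0.72 for 1418762_at. None was called with all arrays in the main fit (limma, adjusted p = 0.0637, 0.0529 and 0.166). The oncogene and control arrays did not overlap for any of the 3, which follow each other closely. The share of all probe sets without such overlap was not counted, so this is a description only. None of the 4 members other than Serping1 was called there, where 1.07% of all probe sets were called. Leaving out Wt1-null replicate 2 does not touch these differences but lowered their SE, to 0.43 for 1443906_at and 0.47 for 1460242_at, and both were then called (adjusted p = 0.00529 and 0.0113), where 1.64% of all probe sets were. Leaving out double replicate 4 called both (adjusted p = 0.0274 and 0.0290), and leaving out double replicate 1 called 1443906_at alone (adjusted p = 0.0468). With all 22 arrays kept, Cd55 was also called in several other settings, among them the replicate block (adjusted p = 0.0356 for 1443906_at and for 1460242_at), the accession set as a random block (0.0482 for 1443906_at), repeated quantile normalization (0.0441) and a trended variance (0.0491).

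In double against Wt1-null MEFs Cd55 was higher by 1.74 ± 0.57 for 1460242_at, 1.77 ± 0.56 for 1443906_at and 1.63 ± 0.67 for 1418762_at, none called (limma, adjusted p = 0.198, 0.189 and 0.302). Without Wt1-null replicate 2 the same differences were 2.40, 2.47 and 2.35, all called (adjusted p = 0.00662, 0.00310 and 0.0258, where 3.77% of all probe sets were). With only these 2 groups fitted and that array left out, the first and second were called and the third was not (limma, adjusted p = 0.0414, 0.0232 and 0.0782). Wt1-null against control gave 1.16 to 1.18, none called (limma, adjusted p = 0.485 to 0.557), and 0.45 to 0.50 without that array. No member other than Serping1 was called in this comparison, where 19 of 45037 probe sets were (0.0422%, with 4950 at an unadjusted p below 0.05). Double and oncogene MEFs differed by 0.49 to 0.67 over the 3 Cd55 probe sets (limma, adjusted p = 0.9999 for each), and for 1460242_at the interval ran from -0.66 to 1.71. In that comparison no probe set on the array was called (0%, with 1587 at an unadjusted p below 0.05).

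The interaction, the difference of double and Wt1-null minus that of oncogene and control, was -0.63 ± 0.84 for Cd55 1460242_at (limma, adjusted p = 0.845) and 0.03 without Wt1-null replicate 2. Its interval, -2.38 to 1.11, is wider than any difference of Cd55 given above. No member other than Serping1 was called in it, where 4 probe sets of all were (0.00888%, with 3387 at an unadjusted p below 0.05). For Serping1 the interaction contains the arrays on which it was picked, and it stood at -1.90 ± 0.64 with all arrays and -1.37 ± 0.48 without Wt1-null replicate 2, with no test.

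**Figure D2:**
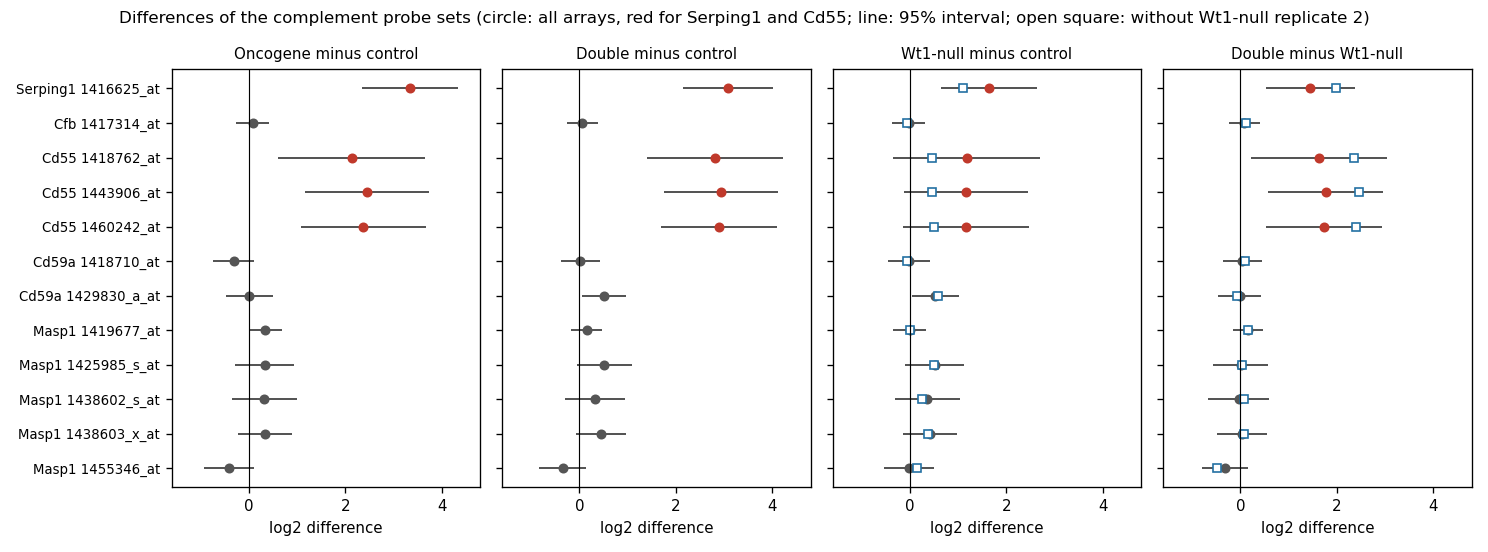
Differences between group means (log2, horizontal axes) for the 12 probe sets in 4 comparisons, circles from all 22 arrays with 95% intervals as lines, and open squares without Wt1-null replicate 2. Serping1 and Cd55 (red) stand at 1.16 or more in all 4 panels with all arrays, and the squares move down in Wt1-null minus control and up in double minus Wt1-null.

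**Figure D3:**
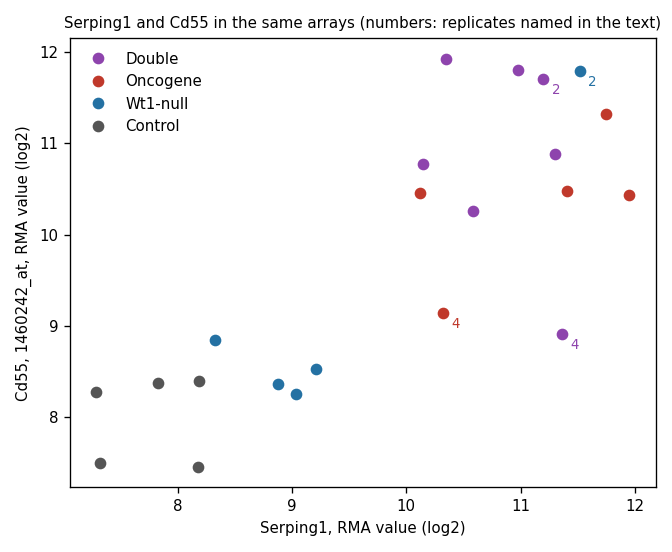
Cd55 1460242_at against Serping1 (RMA values, log2) in the same 22 arrays, coloured by group, with replicate numbers beside the arrays named in the text. Wt1-null replicate 2 lies beside double replicate 2, and double replicate 4 has the highest Serping1 of its group (11.36) with the lowest Cd55 (8.91).

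Over the 22 arrays Serping1 and Cd55 had Pearson r of 0.744 to 0.815, depending on the Cd55 probe set. These values contain the differences between the groups and are descriptions only. Within groups the pair came apart in single arrays. In double replicate 5 Serping1 was among the lowest of its group, at 10.35, and Cd55 was the highest, at 11.93. In double replicate 4 the order was turned round.

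The sequence around the start of Cd55 is shown because it is the called member. The RefSeq promoter table of mouse build GRCm38.p6 held 2 of the 5 measured members, Cd55 and Cd59a, each as 300 bases. The motifs AP-1 (TGANTCA, with N for any base), ETS (CCGGAAG), the interferon-stimulated response element or ISRE (GAAA, 2 bases of any kind and GAAA again) and the GC box (GGGCGG) were searched on both strands. Among all 32851 promoters held there, 7.8% had the AP-1 motif, 8.9% the ETS motif, 3.4% the ISRE and 35.7% the GC box. The Cd55 window, chr1:130462695-130462994 on the minus strand, held the GC box at positions -77 and -7 from the start, read as its reverse complement (CCGCCC, in capitals), and none of the other 3 motifs.
Cd55: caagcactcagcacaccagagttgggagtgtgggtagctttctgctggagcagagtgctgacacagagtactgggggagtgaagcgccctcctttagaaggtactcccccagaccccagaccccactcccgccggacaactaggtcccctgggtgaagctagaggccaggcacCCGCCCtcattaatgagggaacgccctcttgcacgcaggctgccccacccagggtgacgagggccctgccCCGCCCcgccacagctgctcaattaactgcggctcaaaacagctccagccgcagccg
These letters describe the window only, and whether a factor binds there was not tested.

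Cd59a encodes a membrane-anchored inhibitor of the membrane attack complex. Probe set 1429830_a_at ran from 7.77 to 8.27 (median 7.91) in double, 6.96 to 7.95 (median 7.50) in oncogene, 7.79 to 8.15 (median 8.12) in Wt1-null and 6.74 to 8.23 (median 7.39) in control arrays. Probe set 1418710_at ran from 7.78 to 8.57, 7.46 to 8.03, 7.55 to 8.34 and 7.42 to 8.50 in the same order of groups. All 4 groups overlapped in both probe sets. The 2 probe sets had a Pearson r of 0.697 with each other and gave different values against control. In double against control MEFs they gave 0.51 ± 0.21 and 0.02 ± 0.18 (limma, adjusted p = 0.183 and 0.969), and in oncogene against control 0.01 ± 0.22 and -0.32 ± 0.20 (adjusted p = 0.991 and 0.520). The sign of the values near 0 turned with the processing.

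The Cd59a window is set beside that of Cd55 as a regulator of the same surface that was not called. It lies at chr2:104095551-104095850 on the plus strand and held 1 match, to the ISRE (GAAAGGGAAA, in capitals) at position -187.
Cd59a: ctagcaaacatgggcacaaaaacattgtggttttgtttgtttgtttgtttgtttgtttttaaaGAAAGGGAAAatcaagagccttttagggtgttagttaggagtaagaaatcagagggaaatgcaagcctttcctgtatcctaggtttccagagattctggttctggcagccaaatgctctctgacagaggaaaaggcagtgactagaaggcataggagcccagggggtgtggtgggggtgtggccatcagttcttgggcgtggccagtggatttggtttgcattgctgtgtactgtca

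Masp1 encodes a protease of the lectin branch, which is among the targets of the inhibitor made by Serping1. Its 5 probe sets read at different levels, with means over all arrays of 11.77, 11.79 and 10.31 for 1425985_s_at, 1438602_s_at and 1438603_x_at, and of 6.95 and 5.80 for 1455346_at and 1419677_at. The first 3 correlated with each other (Pearson r of 0.899 to 0.960), and the last 2 did not correlate with each other (r of 0.004). Probe set 1438602_s_at ran from 11.00 to 12.65 (median 11.77) in double, 10.88 to 12.57 (median 11.96) in oncogene, 11.59 to 12.34 (median 11.75) in Wt1-null and 11.40 to 11.82 (median 11.48) in control arrays. The control arrays were thus the least spread of the 4 groups, and their values lay inside the range of the oncogene arrays. Its difference from control was 0.32 ± 0.31 in oncogene and 0.32 ± 0.29 in double MEFs (limma, adjusted p = 0.715 and 0.633). Against control the 5 probe sets ranged from -0.42 to 0.35 in oncogene and from -0.35 to 0.52 in double MEFs. The negative end was 1455346_at in both comparisons, and the other 4 were above 0. With array weights 1419677_at was called in oncogene against control (0.47, limma, adjusted p = 0.0303), a setting in which 12.9% of all probe sets were called.

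Cfb encodes factor B, the protease of the alternative branch convertase. Its probe set ran from 5.96 to 6.61 (median 6.14) in double, 5.70 to 6.54 (median 6.30) in oncogene, 5.82 to 6.37 (median 6.23) in Wt1-null and 5.89 to 6.26 (median 6.17) in control arrays. The groups overlapped throughout. Against control the difference was 0.08 ± 0.16 in oncogene (95% interval -0.24 to 0.41) and 0.06 ± 0.14 in double MEFs (-0.24 to 0.36), with adjusted p = 0.869 and 0.887 (limma). RMA compresses differences of dim probe sets, and intervals near the floor understate changes in the transcript.

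**Figure D4:**
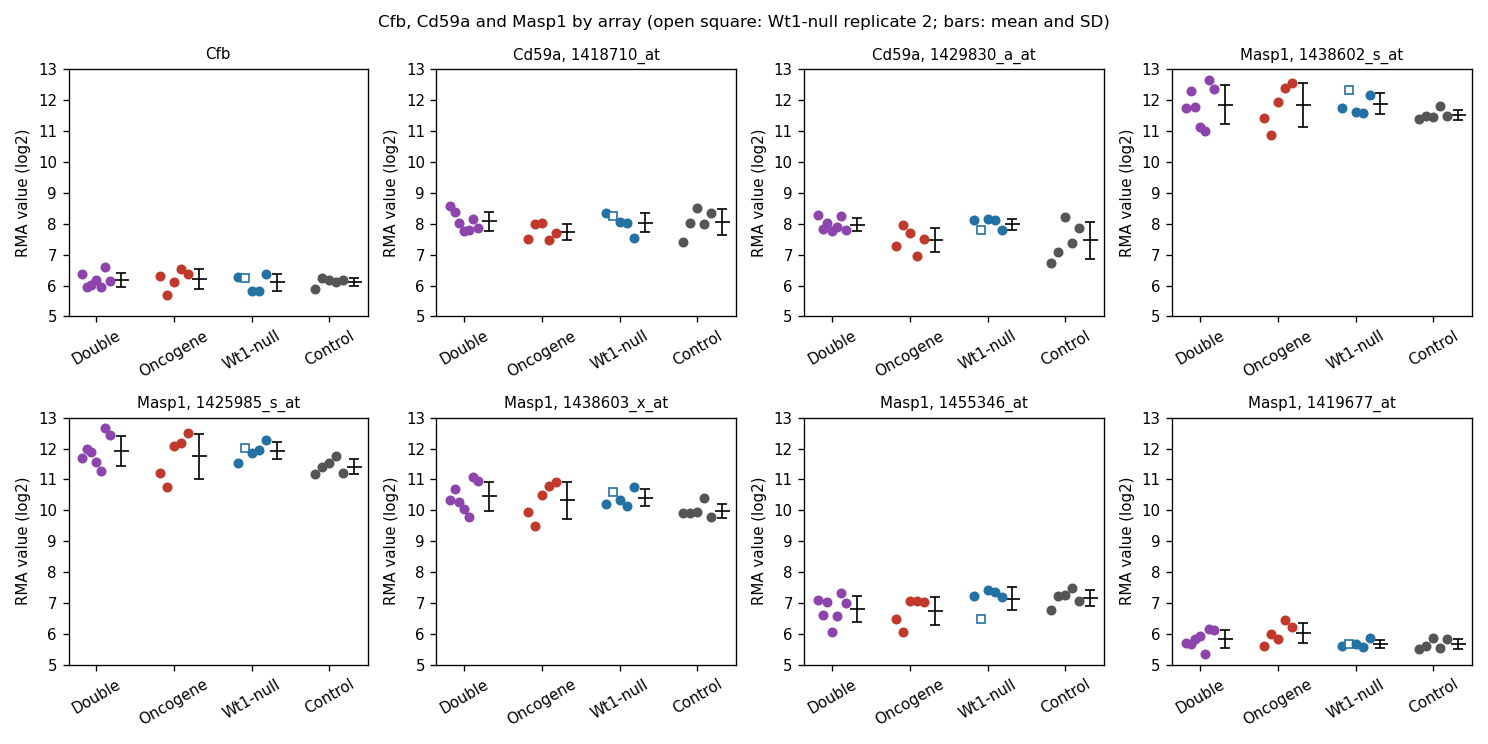
RMA values (log2) of Cfb, both Cd59a probe sets and the 5 Masp1 probe sets by array in the double, oncogene, Wt1-null and control groups, with group means and SD as bars and Wt1-null replicate 2 as an open square. The groups overlap in every panel.

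The other genes of complement were read from 4 lists with 51 genes, of which 42 had a single-gene probe set, taking for each gene the probe set with the highest mean. In oncogene against control MEFs 1 of 42 rose and 0 fell, where 1.07% of all probe sets were called, and the median difference was -0.05, against -0.03 over all genes. In double against control MEFs 1 of 42 rose and 0 fell, where 4.01% of all probe sets were called, with a median of 0.01, against -0.02 over all genes. In Wt1-null against control, double against Wt1-null and double against oncogene 0 of 42 were called. There 0.0422%, 0.00666% and 0% of all probe sets were called, shares at which a count of 0 says little about these genes. Their medians were -0.03, 0.09 and 0.04, beside -0.05, 0.04 and 0.01 over all genes. For 30 of the 42 genes all 4 group means lay below 6.29, the median of all probe set means, where small changes are hard to see.

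The gene called was Clu, which encodes clusterin, a secreted chaperone that also blocks assembly of the membrane attack complex. Its probe set 1437458_x_at read 11.09, 11.06, 10.15, 10.97, 10.77, 11.03 and 10.93 in the double arrays. In the oncogene arrays it read 10.38, 10.09, 10.07, 10.20 and 9.82. The Wt1-null arrays read 8.68, 11.27, 9.0, 9.04 and 9.10, and the control arrays 7.83, 8.06, 9.07, 7.97 and 9.46. No double or oncogene array overlapped the control arrays, a description only, since the share of all probe sets without such overlap was not counted. Wt1-null replicate 2 was again the 1 high array of its group. Clu rose by 1.64 ± 0.38 in oncogene and by 2.38 ± 0.35 in double MEFs against control (limma, adjusted p = 0.0403 and 0.00139). The first call was lost when any of 13 arrays was left out (adjusted p up to 0.121, without control replicate 4), among them all 5 oncogene arrays, control replicates 1 to 4, Wt1-null replicates 3 and 4, and double replicates 2 and 7. The second held with every array left out, and the other 3 probe sets of Clu gave 1.88 to 2.76 in oncogene and 2.76 to 3.75 in double MEFs against control. In double against Wt1-null MEFs Clu was higher by 1.44 ± 0.35, not called with all arrays (limma, adjusted p = 0.111) and called without Wt1-null replicate 2 (1.90, adjusted p = 0.000487).

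The 2 proteases that the Serping1 product inhibits in the classical branch were measured as C1s1 and C1ra. C1s1 read 8.88 ± 1.17 in double, 9.0 ± 1.23 in oncogene, 7.72 ± 1.16 in Wt1-null and 6.92 ± 1.0 in control MEFs (SD). It was higher than control by 2.09 ± 0.68 in oncogene and 1.96 ± 0.63 in double MEFs, neither called (limma, adjusted p = 0.152 and 0.0867). The second was called without control replicate 5 or double replicate 4 (adjusted p = 0.0481 and 0.04996). C1ra read 8.85 ± 1.35, 9.21 ± 1.29, 8.41 ± 0.94 and 7.96 ± 1.10 in the same order of groups, and its differences from control, 1.25 ± 0.72 in oncogene and 0.89 ± 0.66 in double MEFs, were not called (adjusted p = 0.472 and 0.542). For both genes the arrays of every group overlapped those of the control.

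Among the other initiation genes the largest differences in double against control MEFs after C1s1 were those of Colec12, a scavenger receptor with a collectin domain, at 0.94 ± 0.45 (limma, adjusted p = 0.279), and of C1ra. In the list of alternative and terminal components 0 of 7 were called, where 4.01% of all probe sets were. The largest difference was -0.19 ± 0.10, for C8b, followed by 0.14 ± 0.12 for Hc, both of the terminal pathway. Among 9 receptors 0 were called in the same comparison. C3ar1, a receptor for a complement fragment, gave 0.52 ± 0.21 (adjusted p = 0.181) and C1qbp, a binding protein of C1q that also works in mitochondria, 0.23 ± 0.15 (adjusted p = 0.448). Cr1l, a mouse membrane regulator of the convertases, gave -0.46 ± 0.14 (adjusted p = 0.0689) and was not called. Of the 42 genes 37 lay within 0.5 log2 units of control.

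**Figure D5:**
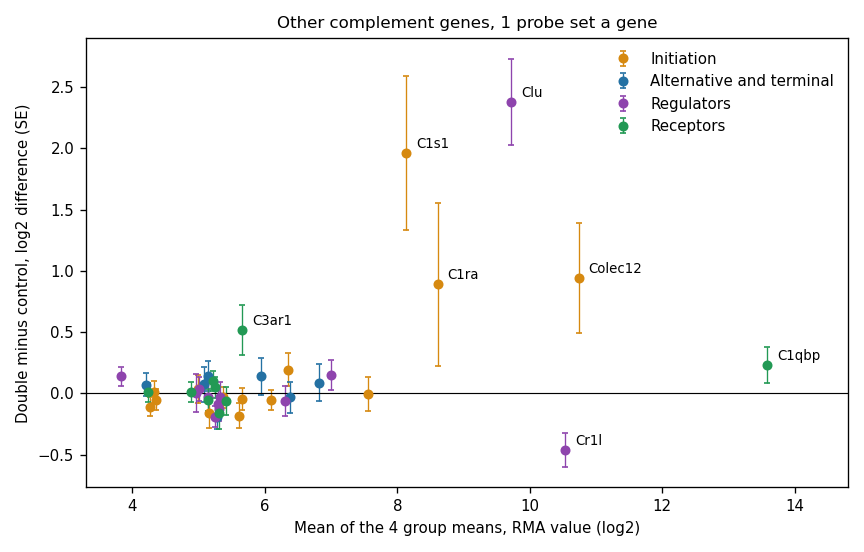
Double minus control difference (log2, with SE bars) of the 42 other complement genes against the mean of their 4 group means (RMA value, log2), coloured by list. Clu stands at 2.38 and is the 1 gene called, C1s1 at 1.96 is not called, and 37 genes lie within 0.5 log2 units of 0.

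Interferon and inflammatory signals are known to raise Serping1 and other complement genes in many cells, so 2 lists of their targets were read beside the members. Of 23 interferon response genes 0 were called in any comparison, where 0% to 4.01% of all probe sets were. Their median was 0.28 in oncogene, 0.18 in double and -0.22 in Wt1-null MEFs against control, beside -0.03, -0.02 and -0.05 over all genes. The largest differences in oncogene against control were those of Oasl2 and Usp18, at 1.40 ± 0.63 and 0.94 ± 0.46 (adjusted p = 0.330 and 0.386). In double against Wt1-null the median was 0.32, beside 0.04 over all genes, with 23 of 23 above 0. The share of all genes above 0 was not counted, and the list was not read without Wt1-null replicate 2. Accession set and group cannot be told apart in this comparison. Oasl2 and Ifit3 were the largest at 1.62 ± 0.58 and 1.38 ± 0.32 (limma, adjusted p = 0.240 and 0.103). Of 17 NF-kB and acute phase genes 1 rose in oncogene and 2 in double MEFs against control, and 0 fell, where 1.07% and 4.01% of all probe sets were called. The median of the 17 against control was 0.34 in oncogene, 0.52 in double and 0.07 in Wt1-null MEFs. Over all genes it was -0.03, -0.02 and -0.05. In double against Wt1-null 0 of the 17 were called with all arrays, where 0.00666% of all probe sets were. Their median was 0.10 there, beside 0.04 over all genes. Icam1, an adhesion molecule of inflamed cells, rose by 2.35 ± 0.44 in oncogene and by 3.09 ± 0.41 in double MEFs (limma, adjusted p = 0.0135 and 0.000452). It ran from 9.13 to 10.36 in double and from 8.61 to 9.51 in oncogene arrays, against 5.80 to 7.43 in control arrays. That absence of overlap is a description only, since its share over all probe sets was not counted. In double against Wt1-null MEFs Icam1 was higher by 2.30 ± 0.41, not called with all arrays (limma, adjusted p = 0.0539). Without Wt1-null replicate 2 that difference was 2.86 and was called (limma, adjusted p = 2.17e-05), where 3.77% of all probe sets were. Saa3, an acute phase protein, rose by 0.78 in double against control MEFs (limma, adjusted p = 0.0390). It ran from 5.84 to 7.12 in double and from 5.32 to 5.96 in control arrays, which overlapped, and the call was lost without any of 4 control arrays (replicates 1, 3, 4 and 5) or of 3 double arrays (4, 5 and 7).

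Markers of other cell types were read beside these calls. Of 10 macrophage markers 1 was called in double against control MEFs, where 4.01% of all probe sets were. It was Cd68, higher by 0.80 ± 0.22 (limma, adjusted p = 0.0393), and its arrays ran from 5.70 to 7.39 over all groups. The pan-leukocyte marker Ptprc stayed at 4.22 to 4.93 in all arrays, within the range of the Y-linked genes. Other markers of the list did not, with Cd53 at 5.03 to 8.79 and Cd14 at 6.33 to 8.32. In double against control MEFs Cd53 and Cd14 gave 0.73 and 0.60, neither called (limma, adjusted p = 0.470 and 0.1715). Of the 10 macrophage markers 5 were above 0 there. The mean of the 10 macrophage markers per array was 6.04 to 6.52 in double and 6.01 to 6.22 in control arrays. Of 7 hepatocyte, 7 adipocyte, 8 endothelial and 8 epithelial markers 0 were called in any comparison, where 0% to 4.01% of all probe sets were. Of 10 fibroblast markers Pdgfra rose in oncogene and double against control MEFs, by 1.97 and 1.78, and Fn1 by 0.91 in double against control. The part of these differences in the results on Serping1, Cd55 and Clu was not tested.

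The genes whose pattern over the 22 arrays was most like that of Serping1 were found by Pearson r among 9356 genes that ranged over at least 1 log2 unit. They were Spry2, an inhibitor of receptor tyrosine kinase signalling (r = 0.933), Efemp1, a fibulin of the matrix (0.926), Gpnmb, a transmembrane glycoprotein (0.917), Nrcam, an adhesion molecule of neurons (0.910), and Mmp2, a matrix metalloprotease (0.898). Spry2 averaged 10.29 in double, 10.24 in oncogene, 9.61 in Wt1-null and 8.81 in control MEFs, a smaller range than that of Serping1. Efemp1 averaged 13.17, 13.01, 11.75 and 10.35 in the same order of groups. Gpnmb averaged 11.29, 10.95, 9.34 and 7.87, so that in all 3 genes the Wt1-null mean lay between the control mean and the other 2. For Cd55 the most alike were Man1a, a mannosidase of the Golgi (r = 0.963), and Dkk2, a secreted Wnt antagonist (r = 0.962). Dkk2 averaged 12.22 in double, 11.98 in oncogene, 10.33 in Wt1-null and 9.02 in control MEFs. These likenesses were selected as the highest of many on the same arrays and carry no test.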

How the data were processed

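RNA was measured on 22 arrays of mouse embryonic fibroblasts, 7 double, 5 oncogene, 5 Wt1-null and 5 control, grouped by the labels. The name of the oncogene is not reported here. Of 6 oncogene arrays in the design text 5 were used (replicates 1, 3, 4, 5 and 6). Since the labels leave the origin of replicates unsaid, p-values cover the spread of these arrays, some of it perhaps technical. The members and lists were chosen with earlier results of these data known.

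Per the submitters' processing notes the authors deposited log2 values from RMA in Affymetrix Expression Console. RMA corrects background, forces 1 distribution on all arrays and combines the probes of a set, and a change of most transcripts at once cannot be seen after it. Values ran from 3.29 to 15.14, with array medians of 6.23 to 6.33. Scanner files and detection calls were not used. The number of arrays limits the precision.

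Of 45101 probe sets 64 controls were left out. The platform annotation named 1 gene for 34945 and several for 932, and 34741 of the former matched the RefSeq table of GRCm38.p6 by gene ID. Probe sets ending in _s_at or _x_at may catch related transcripts. Group means were fitted with limma 3.58.1 in R 4.3.3 (lmFit and eBayes) on all 45037 probe sets and 22 arrays, without blocks, with Benjamini-Hochberg adjustment over all probe sets, and tested on simulated data. A gene counts as called if 1 of its probe sets is. Every measured member was given with all of its single-gene probe sets. For each list up to 4 called genes with the smallest p were named per comparison, and otherwise the largest differences. Most alike were the 5 genes of highest Pearson r for Serping1 and 2 for Cd55, leaving out clone names.

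Alternatives were 1 probe set a gene, a filter on dim probe sets, median centring, a robust variance with a trend, repeated quantile normalization, weights per array, only the groups compared, a log2 difference of at least 1, a block for the replicate number, accession sets as a fixed or random block or set 3 alone, and leaving out or averaging arrays.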

Additional observations from a re-analysis of the deposited data

Results flagged for a closer look

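Of 48 groups of 5 or 7 values tested, 7 had an array far from the others, where chance gives about 1 in 20. In the Wt1-null group replicate 2 was the highest for Serping1, at 11.52 against 8.33 to 9.21 in the other 4 arrays. It was also the highest for all 3 Cd55 probe sets, at 11.77 against 7.85 to 8.69 (1418762_at), 11.32 against 7.50 to 8.20 (1443906_at) and 11.79 against 8.25 to 8.84 (1460242_at). For Masp1 1455346_at it was the lowest, at 6.49 against 7.19 to 7.43. These flags all come from the array that nearly equals double replicate 2 over all probe sets, and they are not independent of each other. In the control group replicate 4 was the highest for Masp1 1438602_s_at, at 11.82 against 11.40 to 11.50, and for 1438603_x_at, at 10.39 against 9.80 to 9.94.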

How the results depend on the processing

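Of the 4 members other than Serping1, the count called in double against control was 1 (Cd55) in every setting, and in Wt1-null against control, double against oncogene and the interaction 0. In oncogene against control it was 0, and it became 1 with 1 probe set a gene, with probe sets above the median only, with quantile normalization repeated, with a trended and robust variance, with only the groups compared, with the accession set as a random block, within accession set 3, the 1 set with double, oncogene and control arrays (Cd55 1443906_at 2.31, adjusted p = 0.0452) and without double and oncogene replicates 4. It became 2 with array weights, where Masp1 1419677_at was also called (0.47, adjusted p = 0.0303) and 12.9% of all probe sets were. Chosen after seeing the data, leaving out Wt1-null replicate 2 with both replicates 4, and the replicate block without Wt1-null replicate 2, gave 1. In double against Wt1-null the count of 0 became 1 with array weights, with both of these and with only the groups compared, without Wt1-null replicate 2, also added after seeing the data. Leaving out 1 array at a time gave 0 to 1 in these 2 comparisons.

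Serping1 in double against Wt1-null was called with array weights (1.71, adjusted p = 0.00318, where 10.6% of all probe sets were called), without Wt1-null replicate 2 and both replicates 4 (1.89, adjusted p = 0.00233), with the replicate block without Wt1-null replicate 2 (1.88, adjusted p = 0.0103), and with only these groups, without Wt1-null replicate 2 (1.98, adjusted p = 0.00668). Double and Wt1-null arrays share no accession set, so set and group cannot be told apart there. The difference ranged from 1.18 to 1.98 with 1 array left out. The causes were not tested.

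Replicate numbers did not pair the arrays throughout: 12 of 28 same-number pairs deviated together with r over 0.1 (range -0.439 to 0.78), and 5 of 22 arrays correlated best with their own number. The highest r were those of oncogene and double replicates 4 (0.78), Wt1-null and double replicates 2 (0.602) and oncogene and double replicates 6 (0.576). Whether the arrays of such pairs share an origin was not tested. With the replicate block 1 member was called in oncogene against control in place of 0, and Serping1 in double against Wt1-null was 1.36 (adjusted p = 0.129).

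Values near 0 changed sign. Cd59a 1429830_a_at in oncogene against control became -0.042 (quantile normalization), -0.164 (array weights), -0.077 (replicate block), -0.012 (fixed accession block), -0.12 (accession set 3), -0.045 (without double and oncogene replicates 4, and also without Wt1-null replicate 2) and -0.082 (replicate block without Wt1-null replicate 2), and -0.17 to 0.203 with 1 array left out. In double against control Cfb became -0.001 (accession set 3; -0.015 to 0.094 with 1 array left out) and Cd59a 1418710_at -0.014 (quantile normalization), -0.083 (array weights), -0.129 and -0.029 (fixed and random accession block) and -0.137 (accession set 3; -0.137 to 0.133). Cfb in oncogene against control ranged from -0.002 to 0.208. The Cd55 1460242_at interaction became 0.078 (array weights), 0.362 (fixed accession block) and 0.051 (without Wt1-null replicate 2 and both replicates 4), and -0.938 to 0.026 with 1 array left out. None of these was called.

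Clu in oncogene against control lost its call with the replicate block, the fixed accession block, without both replicates 4 and with Wt1-null replicates 3 and 4 averaged (adjusted p = 0.0581, 0.0516, 0.0510 and 0.0505). Saa3 in double against control lost its call in 7 alternatives, in 1 of them because its difference is below 1. With array weights C1s1 was called in oncogene and in double against control (adjusted p = 0.00576 and 0.00350), and Colec12 in double against control (adjusted p = 0.00144), where 12.9% and 24% of all probe sets were called. Accession sets 1 and 2 held no double array, and set 1 no control array. Depth has no counterpart on arrays, and dim probe sets such as Cfb and most other complement genes limit what could be seen.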
